A study of Mus musculus with 2 samples.

Results

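Imprinted genes are genes of which mainly the copy from a single parent is expressed, and 35 autosomal ones were followed here through a genome-wide list of H1t peaks. They were taken from a list of known imprinted genes, not chosen by their peaks, and all 35 were found by symbol among the 51229 autosomal genes of the GENCODE M21 annotation, 29 as coding and 6 as non-coding genes. H1t is a linker histone made in male germ cells. Spermatogenic cells came from testes of ICR mice aged 6 weeks, and enzymatically cut chromatin was precipitated with an in-house rabbit antibody against H1t. The series also holds an input library without antibody from the same cell type, which was not analysed here. The labels name neither the number of animals nor the stages among the cells, so the values average over a mixture of germ cells. A peak list gives no expression, so the labelled cell type could not be checked against its markers.

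Imprinting rests on DNA methylation that is placed in the egg or in the sperm at control regions, called germline differentially methylated regions, and is kept on that parent's copy after fertilisation. Many of these regions sit at the promoter of a paternally expressed gene and are methylated in the egg only. A few, such as those upstream of H19, between Dlk1 and Meg3, and near Rasgrf1, are methylated in sperm. In male germ cells the inherited marks have been erased and the paternal pattern has been set on both copies, so parental expression classes below describe the genes in somatic tissues and not in these cells. Linker histones bind the DNA that enters and leaves the nucleosome and help chromatin to fold.

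The positions that the results turn on include 4 peaks centred in coding sequence close to a gene start, and their central 151 bp are shown with CpG dinucleotides in capitals. They were read through GENCODE transcripts of GRCm38, the assembly called mm10, on the strand of the gene. The stretch in Peg12 is chr7:62464046-62464196, that in Magel2 chr7:62377418-62377568, that in Ascl2 chr7:142968548-142968698 and that in Dio3 chr12:110279294-110279444.
Peg12 (minus strand): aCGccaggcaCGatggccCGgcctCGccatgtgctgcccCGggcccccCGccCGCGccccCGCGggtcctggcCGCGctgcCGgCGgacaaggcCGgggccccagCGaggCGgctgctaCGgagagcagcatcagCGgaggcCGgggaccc
Magel2 (plus strand): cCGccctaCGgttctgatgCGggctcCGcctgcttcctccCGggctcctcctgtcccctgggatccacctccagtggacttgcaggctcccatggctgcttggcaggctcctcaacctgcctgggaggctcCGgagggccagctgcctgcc
Ascl2 (minus strand): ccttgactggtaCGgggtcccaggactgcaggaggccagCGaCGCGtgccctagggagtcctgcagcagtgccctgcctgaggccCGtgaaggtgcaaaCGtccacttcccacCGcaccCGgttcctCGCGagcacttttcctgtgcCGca
Dio3 (plus strand): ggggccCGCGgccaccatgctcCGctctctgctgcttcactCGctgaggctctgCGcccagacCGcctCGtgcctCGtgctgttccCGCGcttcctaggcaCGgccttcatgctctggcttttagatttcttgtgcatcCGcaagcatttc
The Peg12 stretch held 20 CpG at 80.8% GC, that of Dio3 12 at 62.9%, that of Ascl2 11 at 66.2% and that of Magel2 6 at 69.5%.

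The 250 bp upstream of the RefSeq start are also shown for 3 members whose imprinted promoter lies at a germline differentially methylated region. These stretches differ in length and position from the peak centres above, so their CpG numbers cannot be compared directly. The Nnat promoter (chr2:157559828-157560077, GRCm38.p6) was overlapped by a peak, and those of Peg3 (chr7:6730420-6730669) and Zrsr1 (chr11:22971755-22972004) were not. Of the members, 28 matched the RefSeq promoter table by symbol, and 23 had a RefSeq start within 1 kb of the GENCODE start.
Nnat (plus strand): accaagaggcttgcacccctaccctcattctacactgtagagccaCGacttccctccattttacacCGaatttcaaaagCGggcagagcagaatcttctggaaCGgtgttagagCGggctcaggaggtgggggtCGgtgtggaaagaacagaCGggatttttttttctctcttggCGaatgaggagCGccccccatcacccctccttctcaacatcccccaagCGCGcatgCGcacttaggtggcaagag
Peg3 (minus strand): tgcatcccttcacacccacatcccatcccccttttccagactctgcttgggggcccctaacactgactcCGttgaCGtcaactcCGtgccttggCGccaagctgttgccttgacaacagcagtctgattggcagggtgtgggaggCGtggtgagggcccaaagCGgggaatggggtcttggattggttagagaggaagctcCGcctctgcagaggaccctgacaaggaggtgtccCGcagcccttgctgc
Zrsr1 (plus strand): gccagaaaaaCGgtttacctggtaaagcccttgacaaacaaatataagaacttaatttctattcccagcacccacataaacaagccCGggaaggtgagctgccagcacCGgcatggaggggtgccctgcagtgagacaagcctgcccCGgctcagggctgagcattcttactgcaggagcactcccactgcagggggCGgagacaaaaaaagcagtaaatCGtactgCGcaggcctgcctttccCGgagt
The stretches held 12 CpG at 54.8% GC in Nnat, 8 at 60.4% in Peg3 and 8 at 54.4% in Zrsr1. Of other members assigned to such a region, without a peak over the stretch, Usp29 held 14 at 64.8%, Kcnq1ot1 5, Snrpn 3 and Airn 2. Among the 23 members, stretches with a peak over them held 7 CpG in Magel2, 8 in Peg12, 12 in Nnat and 19 in Ascl2. They held 21 each in Dio3, Phlda2 and Rasgrf1, and 24 in Ube3a. Without a peak, Igf2r held 27, Gnas, Usp29 and Zim1 14 each, Meg3 and Mkrn3 10 each, and the rest from 0 in Rian to 8. Most stretches with a peak thus held 19 or more, which Igf2r alone reached without one. Whether CpG number goes with a peak was not tested, and the 3 stretches shown do not tell.

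The list held 76546 peaks, 72438 of them on the autosomes, each with a score that is the authors' own value and ran from 50 to 3100. The score served only to describe and rank peaks within this list, and since read depth is unknown no counting interval is given. There is a single library with peaks, so no value has a replicate and no difference was tested. A gene was counted by peak midpoints within 1 kb of its start, in its body, and in its body with 10 kb on each side. The shares of members are set beside those of all autosomal coding, non-coding or all genes, members included. Members of a cluster share sequence surroundings, so they are not independent of each other.

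The start of 11 of the 35 members had a peak (31.4%, against 14.3% of all autosomal genes). All 11 were coding genes, which gives 37.9% of the 29 coding members against 24.2% of the 20807 autosomal coding genes. None of the 6 non-coding members had one, where 7.51% of autosomal non-coding genes did. A body peak was found in 20 coding members (69.0%, against 48.9% of coding genes) and in 5 non-coding members (83.3%, against 9.6% of non-coding genes). The median length of these non-coding members was 44.3 kb and that of all autosomal non-coding genes 0.939 kb. A peak in the body or the flanks was found in 22 coding members (75.9%, against 69.9%) and 5 non-coding ones (83.3%, against 42.6%). Over coding and non-coding genes together, 25 members had a body peak (71.4%, against 25.5% of all autosomal genes) and 27 a peak in body or flanks (77.1%, against 53.7%). The 27 members with any peak held 83 distinct peaks, 6 of which counted for a pair of members.

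The median score and width of these peaks were close to those of all autosomal peaks, with smaller shares of high and of wide peaks. Their median score was 72.24 and the autosomal median 73.82, and a score of 100 or more was reached by 24.1% of them and by 29.3% of autosomal peaks. Median width was 653 bp, against 699 bp for all autosomal peaks, and 12.0% were 1 kb or wider, against 19.6%. The midpoint of 15 of the 83 peaks lay in coding sequence (18.1%, against 7.08% of autosomal peaks), 19 in other exon sequence including UTRs (22.9%, against 5.13%), 37 in introns (44.6%, against 31.7%) and 12 between genes (14.5%, against 56.1%). The last share follows in part from the choice of windows, which are centred on genes.

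**Figure D1:**
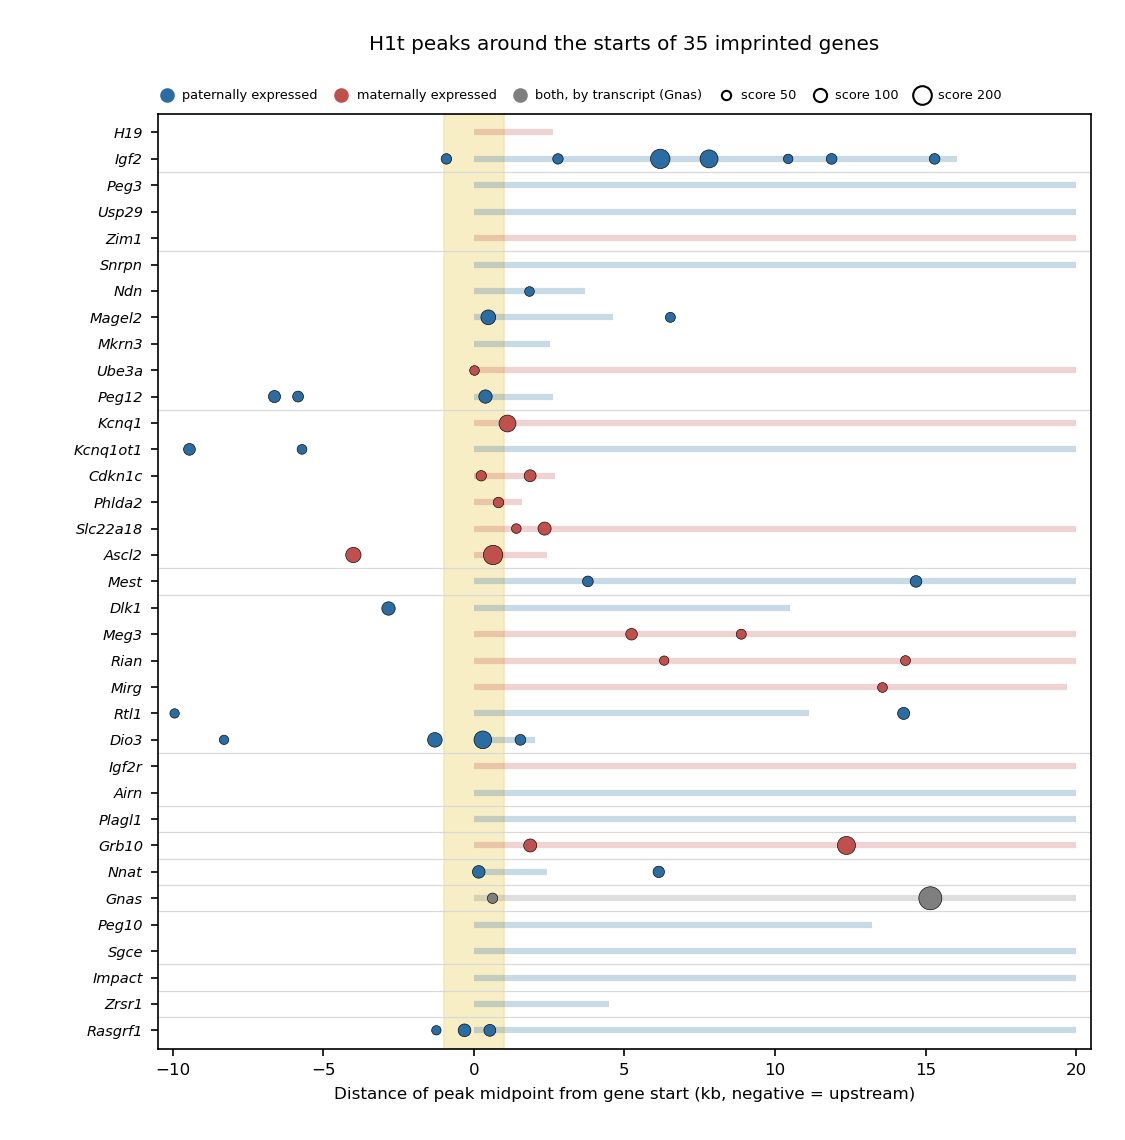
Midpoints of H1t peaks from 10 kb upstream to 20 kb downstream of each member's start, with dot area proportional to the score; pale bars mark gene bodies, drawn up to 20 kb, and the yellow band marks 1 kb on each side of the start. Rows follow the imprinted clusters, and dots in the band are seen for 11 members and for none of the others.

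The highest score at a member's start belonged to Ascl2, a transcription factor gene needed in the placenta. Its peak at chr7:142967808-142969438 was 1631 bp wide, scored 216.78 and was centred 641 bp downstream of the start, and 4.99% of autosomal peaks scored as high or higher. Dio3, which encodes the deiodinase that inactivates thyroid hormone, had a peak of 1536 bp at chr12:110278601-110280136 with a score of 180.29, centred 301 bp downstream. Magel2, a MAGE family gene of the Prader-Willi region, had a peak of 1179 bp at chr7:62376904-62378082 that scored 126.36, centred 483 bp downstream. Peg12, a Frat family gene of the same region, had a peak of 815 bp at chr7:62463714-62464528 that scored 102.52, centred 389 bp downstream. These 4 were the members with a start-site score of 100 or more, 13.8% of the coding members, against 5.48% of all autosomal coding genes.

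The other 7 members had weaker peaks at the start. Rasgrf1, a Ras exchange factor gene, had 2, centred 307 bp upstream (93.2) and 534 bp downstream (81.34). Nnat, which encodes neuronatin and lies in an intron of Blcap, had a score of 91.29 at 165 bp downstream. Igf2, the fetal growth factor gene, had 63.39 at 909 bp upstream, and this midpoint lies in coding sequence of the overlapping gene Gm49394. Phlda2, which limits placental growth, had 63.44 at 797 bp downstream, and Cdkn1c, an inhibitor of the cell cycle, 62.29 at 248 bp downstream. Gnas, the locus of the stimulatory G protein alpha subunit, had 62 at 624 bp downstream. Ube3a, a ubiquitin ligase gene expressed from the maternal copy in neurons, had 53.61 at 8 bp downstream.

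Of the 12 peaks at member starts, 10 were centred downstream of the start and 8 in coding sequence, for Igf2 that of Gm49394. The same shares over start-site peaks of all coding genes are not given here, so this placement cannot be read as particular to the members. Kcnq1, a potassium channel gene, fell just outside the window with a peak of score 163.77 centred 1104 bp downstream. Igf2 at 909 bp and Phlda2 at 797 bp were the members nearest to the limit on the inner side. The next ones outside it were Slc22a18, a transporter gene, at 1413 bp, Ndn, which encodes necdin, at 1830 bp, and Grb10, an adaptor that limits growth, at 1874 bp.

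Short coding members carried much of the start-site signal. Of the 10 coding members under 5 kb, 7 had a start-site peak (70%, against 19.6% of autosomal coding genes of that length), and 8 had a body peak (80%, against 23.3%). The 7 were Magel2, Peg12, Cdkn1c, Phlda2, Ascl2, Dio3 and Nnat, and the others were Ndn, with a body peak of score 53.91, and Mkrn3 and Zrsr1, with no peak. Peaks covered 82% of the body of Dio3, 59.8% of Ascl2, 47.3% of Phlda2, 44.7% of Cdkn1c and 30.2% of Peg12. Coding members of 5 to 30 kb had a start-site peak in 1 of 8 cases (12.5%, against 20.2%), and those of 30 kb or more in 3 of 11 (27.3%, against 31.9%). Body peaks in these classes were found in 3 of 8 members (37.5%, against 39.5%) and in 9 of 11 (81.8%, against 74.4%). The length classes were chosen after the values were seen.

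Many imprinted genes use several promoters, so peaks were also counted at every annotated transcript start. With this count 19 members had a peak within 1 kb (54.3%, against 17.4% of all autosomal genes), among them 17 of the 29 coding ones (58.6%, against 31.6% of coding genes) and 2 of the 6 non-coding ones (33.3%, against 7.76% of non-coding genes). Coding members had a median of 4 distinct transcript starts and all coding genes 3, so they offered more sites. The 8 members gained were Grb10, Kcnq1, Meg3, Mest, Mirg, Plagl1, Slc22a18 and Usp29.

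At several of these alternative starts the peak sat almost on the start itself. In Grb10 a peak of 1585 bp at chr11:12025518-12027102 scored 188.04 and was centred 14 bp downstream of an alternative transcript start, with its midpoint 12373 bp into the gene. In Plagl1, a zinc finger gene of growth control, a peak of score 56.91 was centred 1 bp from an alternative start, at chr10:13090375-13091009. In Mest, which encodes a protein of the hydrolase fold, a peak of score 78.15 was centred 175 bp downstream of such a start, at chr6:30737950-30738509. Both lay far from the start of the gene record, 30188 bp into Plagl1 and 14683 bp into Mest. In Usp29, a ubiquitin peptidase gene, a peak of score 230.9 was centred 67 bp upstream of an alternative start, 216957 bp into the gene. In Kcnq1 the peak of 163.77 was centred 85 bp upstream of an alternative start.

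**Figure D2:**
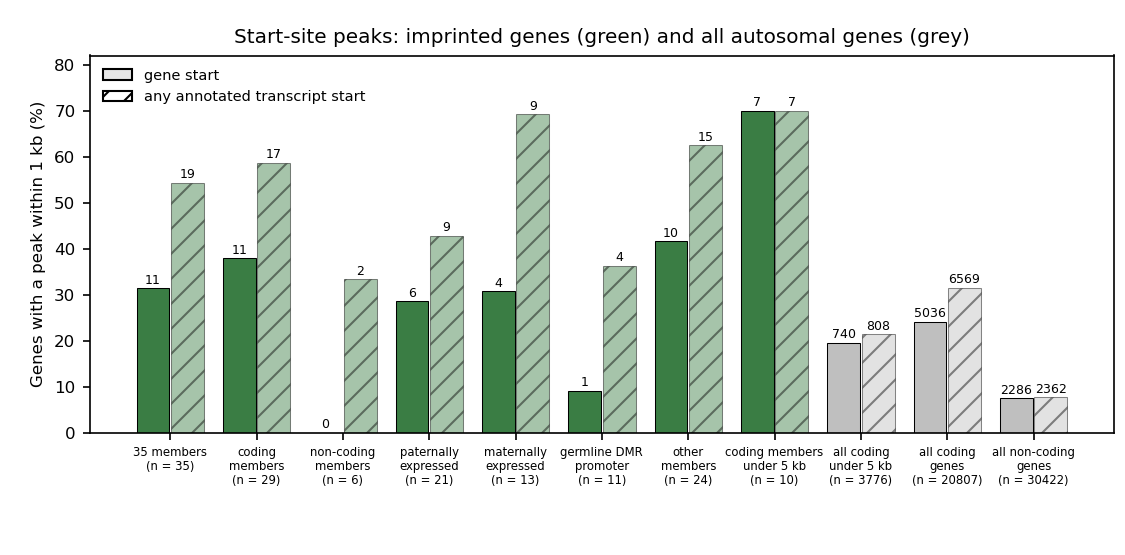
Share of genes with a peak midpoint within 1 kb of the gene start (solid) or of any annotated transcript start (hatched), for groups of imprinted members (green) and for all autosomal genes (grey); numbers above bars are genes with a peak. Solid bars stand at 37.9% for coding members and 24.2% for all coding genes, and at 70% for coding members under 5 kb and 19.6% for all coding genes of that length.

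Peak density over the body and 10-kb flanks had a median of 3.54 peaks per 100 kb over the 35 members, 3.73 over the 29 coding ones and 2.60 over all autosomal coding genes. Igf2 was the densest with 7 peaks (19.4 per 100 kb), a density that 0.980% of coding genes reach. Dio3 followed with 4 peaks (18.2), Peg12 with 3 (13.3), and Ascl2 and Nnat with 2 each (8.91). Igf2, Dio3 and Peg12 were the only members within the densest 10% of coding genes.

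**Figure D3:**
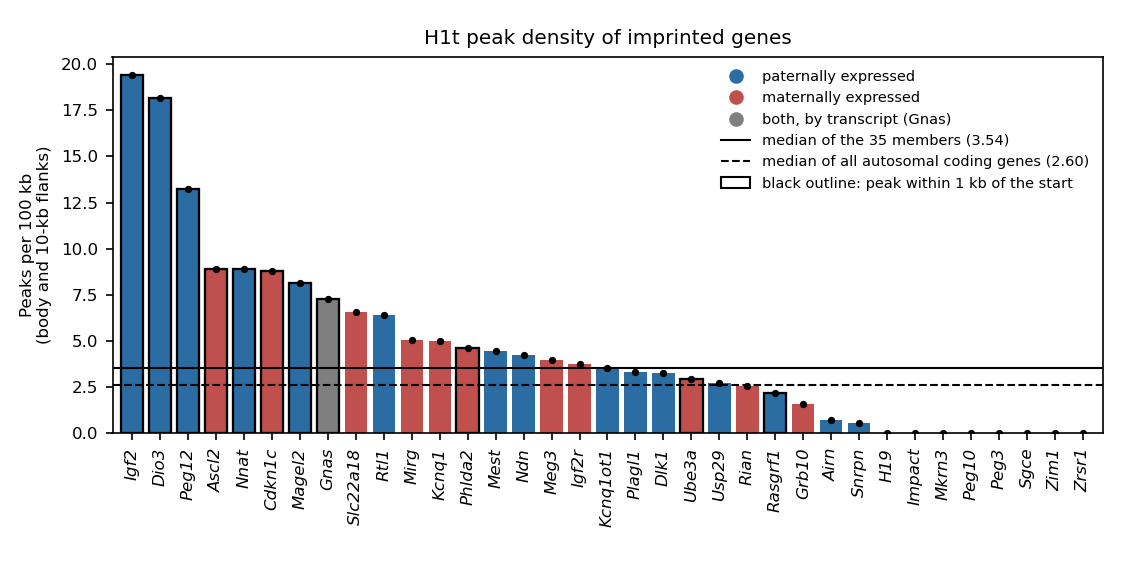
Peaks per 100 kb over the body and 10-kb flanks of each member, in falling order, with bar colour giving the parental copy that is expressed in somatic tissues. Igf2, Dio3 and Peg12 stand above 13 peaks per 100 kb, 8 members are at 0, and the lines give the medians of 3.54 for members and 2.60 for all autosomal coding genes.

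No peak lay in the body or flanks of 8 members, namely H19, Peg3, Zim1, Mkrn3, Peg10, Sgce, Impact and Zrsr1. The 7 coding genes among them are 24.1% of coding members, against 30.1% of all autosomal coding genes at 0. H19 makes a long non-coding RNA, Peg3 and Zim1 encode zinc finger proteins, and Mkrn3 encodes a ubiquitin ligase that restrains puberty. Peg10 derives from a retrotransposon and shares its promoter region with Sgce, the epsilon-sarcoglycan gene, while Impact encodes a regulator of translation and Zrsr1 is a retrocopy of a splicing factor gene. The peak nearest to the start lay 13109 bp away for H19 and 23605 bp for Peg10. It lay 95117 bp away for Peg3 and 103569 bp for Zim1, against a median of 9783 bp for all autosomal coding genes. Absence of a peak means only that none passed the authors' calling, and depth at these genes is not known.

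The H19-Igf2 cluster divided sharply between its members. Its span of 111 kb on chromosome 7 held 11 peaks, 9.88 per 100 kb, where the autosomes as a whole had 3.01. The Igf2 side took 7 of them, the strongest being a pair side by side at chr7:142658118-142659891 (score 186.59) and chr7:142659894-142661353 (217.75). The first was centred 484 bp and the second 581 bp downstream of alternative transcript starts of Igf2. The midpoint of the second also lay in an exon of Igf2os, the antisense gene. H19 and its 10-kb flanks, which include the sequence just upstream where its control region is known to lie, had 0. The other 4 peaks lay in between, with scores of 50.2 to 59.98.

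The Kcnq1 cluster, in which the long RNA Kcnq1ot1 silences neighbours on the paternal copy, had a peak in body or flanks at each of its 6 members and one at the start of Ascl2, Cdkn1c and Phlda2. Its 556 kb held 30 peaks (5.39 per 100 kb). Kcnq1 itself held 15 in its body of 321 kb, at a density of 4.99 with its flanks. Kcnq1ot1, which lies within Kcnq1, had 1 body peak, of score 73.33. The peak nearest to its start lay 5703 bp upstream, and none was closer to that start, where the maternally methylated control region is known to lie. Cdkn1c had a second peak in coding sequence (82.16, centred 1871 bp downstream), and Ascl2 a second one 3997 bp upstream (135.04).

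In the Peg3 cluster all 7 peaks fell in introns of Usp29. At the far end of the gene 4 of them lay between 212543 and 216957 bp from its start, the strongest with scores of 267.9 and 230.9. The start of Usp29, in the promoter region that it shares with Peg3, was 94970 bp from the nearest peak.

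In the Dlk1-Dio3 cluster the 848 kb span held 27 peaks (3.18 per 100 kb), close to the autosomal 3.01. Dio3 at its far end had 4 of them, including 1 of score 122.42 in an exon of Dio3os, centred 1291 bp upstream. Dlk1, which encodes a Notch-type ligand, had none in its body and 1 of score 103.44 centred 2856 bp upstream. Meg3, a non-coding RNA gene, had peaks of 77.69 and 57.97 centred 5238 and 8881 bp downstream. Rian, host of small nucleolar RNAs, had peaks of 50.37 and 56.58, and Mirg, host of microRNAs, had 1 body peak of 54.86 and 1 of 132.72 in its downstream flank. Rtl1, which derives from a retrotransposon, had peaks only in its flanks (84.11 and 50.37), the second being the one in Rian. Of 14 microRNA hairpins within Mirg 3 lay side by side under its body peak of 54.86, the hairpins of Mir409, Mir412 and Mir369. Of 3 within Rian, 1 was overlapped by a peak, Mir370. None of the 7 hairpins within Rtl1 and not the 1 within Meg3 was overlapped by a peak. Outside this cluster, Mir483 within Igf2 was overlapped by a peak of 66.29, and the hairpins within H19, Mest and Usp29 were not. The share over all autosomal microRNA hairpins is not given here, so these counts have no background.

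The Snrpn cluster, the mouse counterpart of the Prader-Willi and Angelman region, spans 3256 kb and held 108 peaks (3.32 per 100 kb), of which 98 lay between members. Snrpn, a gene of 158 kb for a small ribonucleoprotein, had 1 peak (62.15, or 0.56 per 100 kb). The strongest peak of the span, at chr7:59907821-59912682, was 4862 bp wide with a score of 564.25 and lay in an intron of Snhg14, the host transcript that runs antisense to Ube3a. Whether that sequence is repeated in the genome was not measured. Ube3a had 2 further peaks in introns, of 85.68 and 143.43.

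**Figure D4:**
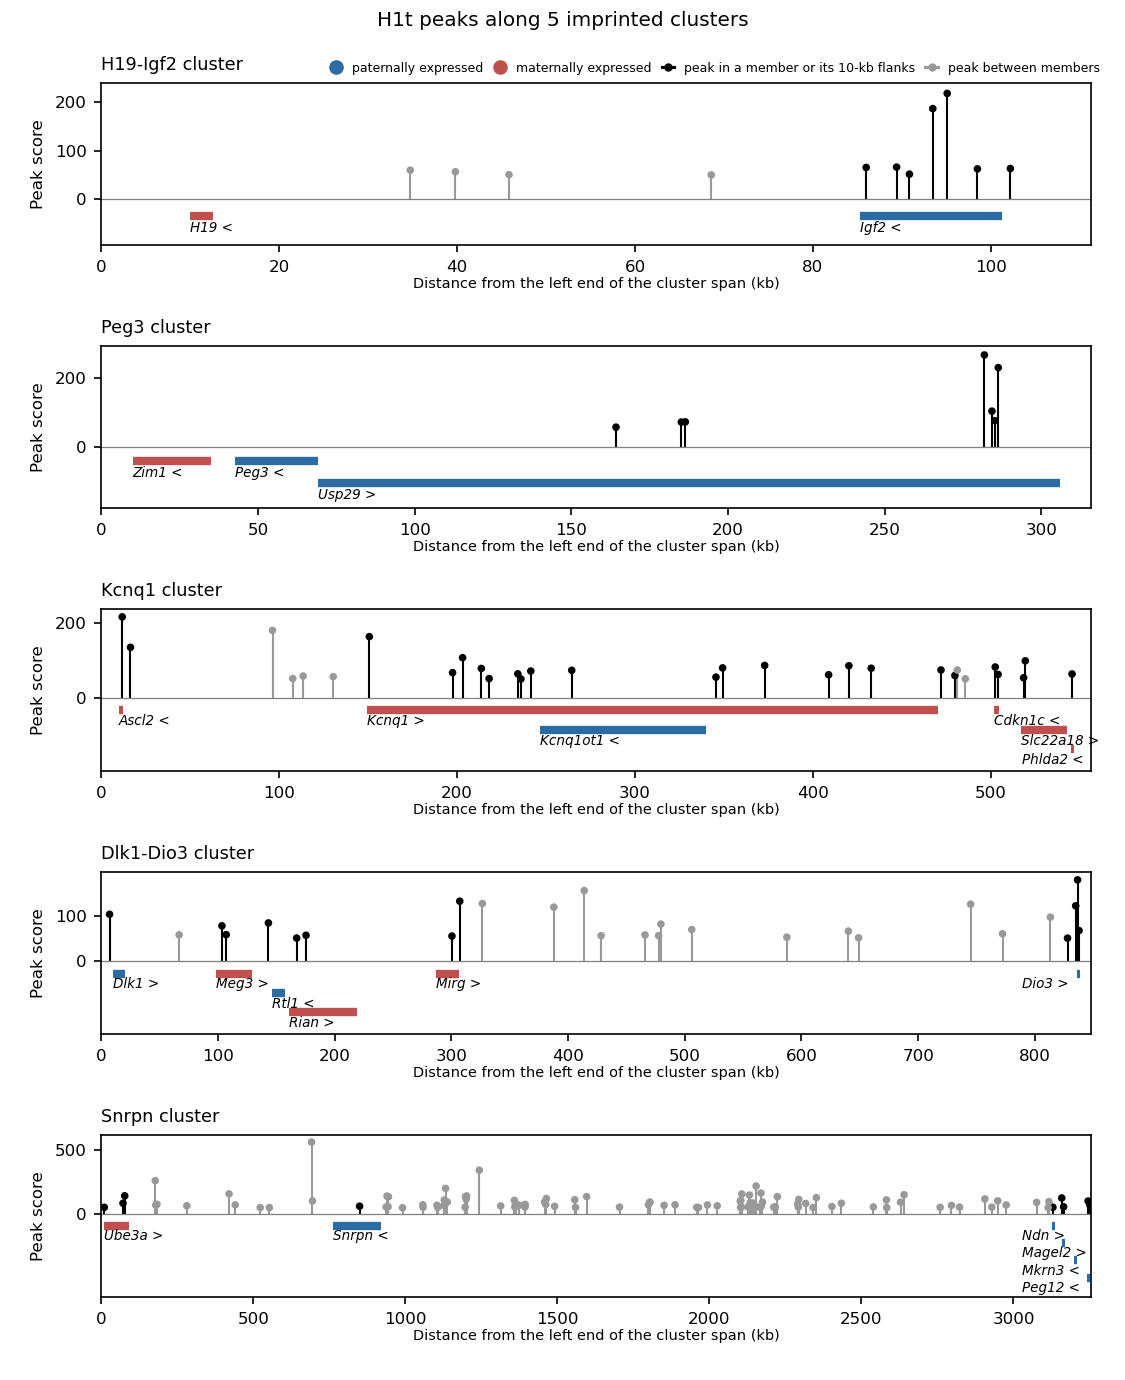
Peak scores (stems) along 5 imprinted clusters, with the bodies of members below the line coloured by parental copy and an arrowhead for the strand; black stems lie in a member or its 10-kb flanks, grey stems between members. The Igf2 body holds both tall stems of its cluster while H19 has none, and the stems of the Peg3 cluster stand within Usp29.

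Among loci with a single member, Gnas had the strongest peak of any member. It measured 2593 bp, scored 305.7 at chr2:174298182-174300774, and was centred in coding sequence 15158 bp into the locus, and 1.72% of autosomal peaks scored as high or higher. Gnas is a locus of overlapping transcripts with alternative first exons, of which some come from the maternal and some from the paternal copy. A further 4 of its 6 peaks lay between 42926 and 50298 bp, with scores of 60 to 125.91. Grb10 had 2 peaks (188.04 and 97.89) and Plagl1 3, including 1 of 112.55 in coding sequence at 67201 bp. Igf2r, which shares a cluster with Airn and encodes the receptor that clears IGF2, had 3 weak body peaks of 50.7 to 60.87. Airn, the RNA that silences Igf2r, had 1 of 55.84 and none at its start.

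Members were also divided by the parental copy expressed, with Gnas counted in neither class. Start-site peaks occurred at 6 of 21 paternally expressed members (28.6%) and at 4 of 13 maternally expressed ones (30.8%), against 14.3% of all autosomal genes. The non-coding members, which had no start-site peak, are 2 of the paternally and 4 of the maternally expressed ones. Among coding members the shares were 6 of 19 (31.6%) for paternal and 4 of 9 (44.4%) for maternal expression, against 24.2% of all autosomal coding genes. With a 2-kb window the counts over all members of each class were 7 of 21 and 7 of 13, and with peaks above the median score 5 of 21 and 1 of 13, so the order of the classes turned with the setting. All members called under these settings were coding, and the shares of all autosomal coding genes were 28.2% with 2 kb and 11.0% above the median score. Counted at any transcript start they were 9 of 21 (42.9%) and 9 of 13 (69.2%), against 17.4% of all autosomal genes. Body peaks in coding members were found in 11 of 19 paternally expressed ones (57.9%) and 8 of 9 maternally expressed ones (88.9%), against 48.9% of coding genes. Median density of coding members was 3.28 peaks per 100 kb for paternal and 4.63 for maternal expression, against 2.60 for all autosomal coding genes. Coding members had a median length of 13.2 kb in the paternal and 25.6 kb in the maternal class, with medians of 3 and 5 transcript starts. The part of length and of the number of starts in these shares was not tested.

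A further division set apart 11 members assigned, by gene and from general knowledge, to a promoter at a germline differentially methylated region. They were Peg3, Usp29, Snrpn, Kcnq1ot1, Mest, Airn, Plagl1, Nnat, Peg10, Sgce and Zrsr1. At the start of the gene record only Nnat had a peak (9.09%), against 10 of the 24 other members (41.7%) and 14.3% of all autosomal genes. For Plagl1, Mest and Snrpn, however, the start of the gene record is not the promoter known to be imprinted, so this count does not describe imprinted promoters alone. Nor is the class a full list. Grb10, Gnas and Impact, which have several transcript starts, were counted among the other members. Whether an alternative promoter of theirs lies at such a region was not weighed, so the contrasts depend on the assignment. At any transcript start 4 of the 11 had a peak, Nnat, Mest, Plagl1 and Usp29 (36.4%, against 62.5% of the other members and 17.4% of all autosomal genes). All 4 are coding, which gives 44.4% of the 9 coding members of the class, against 31.6% of all autosomal coding genes. The Usp29 peak, however, lay 216957 bp into the gene, far from the promoter region that Usp29 shares with Peg3. These shares therefore do not describe promoters at such a region alone. The median density of the 11 was 0.72 peaks per 100 kb, against 4.42 in the other members and 1.54 over all autosomal genes. The 11 had a median length of 71.2 kb and the other members 17.9 kb, and density was lower in longer members, with medians of 8.46 in coding members under 5 kb and 2.73 in those of 30 kb or more. The part of length in the difference was not tested. The annotation does not mark methylated regions, so which transcript start lies in one could not be read from the files.

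Over all coding genes, those with a start-site peak had a median first-exon GC content of 67.2%, so the members were set beside genes of like first-exon GC content. The 29 coding members had a median first-exon GC content of 58.1%, and all coding genes 60%. Members with a start-site peak had a median of 59.6% and those without one 58.0%, so these groups lay close together on this measure. The 250-bp upstream stretches lay further apart. With a peak over the stretch, GC content was 67.6% to 70% in Ascl2, Dio3, Phlda2, Rasgrf1 and Ube3a, but 54.8% in Nnat, 48.8% in Magel2 and 42% in Peg12. Without a peak, Igf2r reached 69.2%, and the others, coding or not, ran from 45.2% in Rian to 64.8% in Usp29. In the 5 classes of rising GC content, formed over all coding genes, start-site peaks were found in 1 of 6, 1 of 4, 6 of 13, 3 of 5 and 0 of 1 members. The shares of all coding genes in these classes were 4.35%, 10.6%, 25.1%, 37.6% and 43.4%. Weighted by the classes that the members fall in, the background is 21.6%, against 37.9% observed. In the 4 members whose peak centres were read, first-exon GC content was lower than that of the centre. It was 57.0% against 80.8% in Peg12, 57.6% against 69.5% in Magel2, 60.9% against 66.2% in Ascl2 and 57.8% against 62.9% in Dio3. The weighted background therefore does not match genes by GC content at the peak. The member in the highest class was Igf2r, at 73.6% GC and without a start-site peak. Peg3 (68.4%) and Zim1 (69.5%) had GC-rich first exons and no peak, while Phlda2 had a start-site peak with an annotated first exon of 34.5% GC. The RefSeq start of Phlda2 lies 626 bp from that of the GENCODE record, and the 250 bp upstream of it, which the peak overlaps, were 68.8% GC with 21 CpG.

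**Figure D5:**
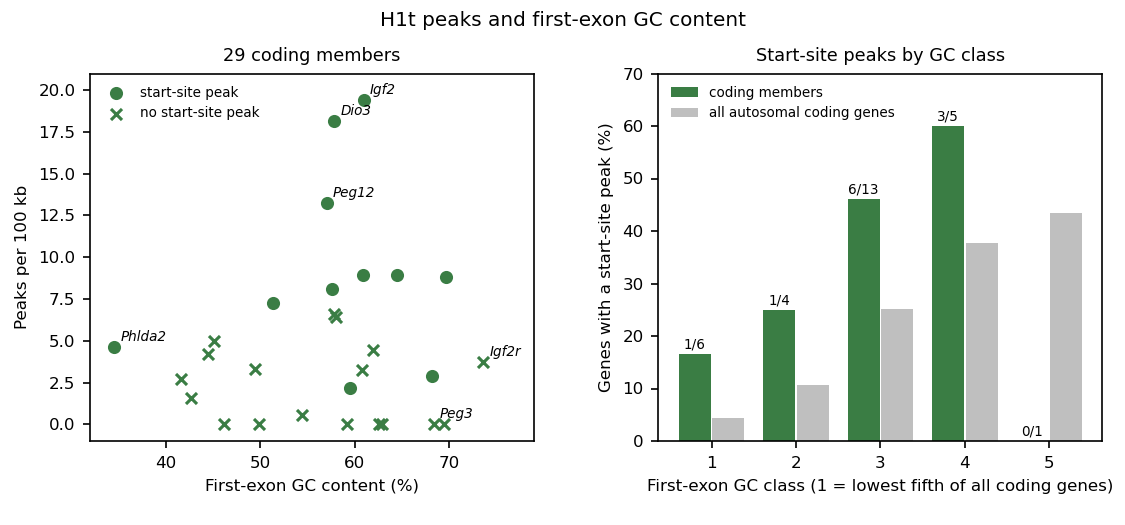
Left, peaks per 100 kb against first-exon GC content for the 29 coding members, with circles for those with a peak within 1 kb of the start; right, share of coding members (green) and of all autosomal coding genes (grey) with such a peak in 5 classes of first-exon GC content. The grey bars rise from 4.35% in the lowest class to 43.4% in the highest, and green bars stand above grey ones in classes 1 to 4.

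Other genes of imprinting were taken from 2 lists. The first held 35 further genes reported as imprinted, 31 coding and 4 non-coding. Of the 31 coding ones, 12 had a start-site peak (38.7%, against 24.2% of coding genes), 19 a body peak (61.3%, against 48.9%) and 6 no peak in body or flanks (19.4%, against 30.1%). Their median density of 1.77 peaks per 100 kb was lower than the 2.60 of all autosomal coding genes, at a median length of 42.5 kb against 17.6 kb. None of the 4 non-coding ones had a start-site peak. Klf14, a maternally expressed transcription factor gene without introns, scored 232.9 at its start. Cd81, a tetraspanin gene of the Kcnq1 domain, scored 180.59, Osbpl5 107.47 and Ppp1r9a, a neurabin gene, 101.68. The densest were Tssc4 (9.16), Cd81 (8.52) and Slc22a2 (7.77). Of 17 genes that set or read imprints, all coding, 5 had a start-site peak (29.4%, against 24.2% of coding genes) and 6 none in body or flanks (35.3%, against 30.1%), both close to the background. Uhrf1, which brings DNA methyltransferase to copied DNA, scored 147.27 at its start with 9.96 peaks per 100 kb, and Tet2, a methylcytosine dioxygenase gene, scored 104.67. Dnmt1, the maintenance methyltransferase gene, had 6 peaks in body and flanks (8.26) but none at its start, and Ctcfl, the testis paralogue of the insulator factor CTCF, had 3 (6.53). Dnmt3l, the cofactor that sets imprints in germ cells, had 1 peak, and Zfp57 and Trim28, which keep imprints after fertilisation, had 0.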

How the data were processed

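Chromatin immunoprecipitation with sequencing was analysed from 1 peak list of the H1t library. Bowtie 1.1.2 and the build mm10 are named in the submitters' processing notes. How peaks were called, whether the input entered and how reads with several positions were treated is not given in the sources used here. In the deposited list each line holds a peak's start, its end and the authors' score, on a scale whose definition no source states. Peak names have the form that MACS writes. Peaks on chromosomes 1 to 19 were used, and positions are printed counted from 1. Genes, transcripts and first exons came from GENCODE M21 (GRCm38). Sequences were read from GENCODE transcripts and the RefSeq promoter table (GRCm38.p6). Peaks can gather reads from repeated sequence, and copy number was not measured.

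The members and lists were chosen with earlier results of these data known. Parental classes, clusters and germline regions came from general knowledge of these genes. Named in full were members with a start-site peak, the 5 densest and those at 0, and of the other lists the 3 densest genes and those with a start-site score of 100 or more. The other members and genes were named for their known roles. With 1 library there was no test. The counting code was checked on simulated peaks planted inside the start window of 200 genes, so their recovery was set in advance. All 200 were called, and 226 genes in total, the number that a separate count also gave. Alternatives covered windows, flanks, overlap, transcript starts and score. Python 3.11.15, numpy 2.4.6, pandas 2.3.3 and matplotlib 3.10.9 were used.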

Additional observations from a re-analysis of the deposited data

How the results depend on the processing

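Of 39 alternative values over 8 results, 24 stayed within 1.5 times the reported count or at the same density. Members with a start-site peak numbered 7 with a window of 0.5 kb, 6 when weaker peaks up to the median score were left out, and 19 with any transcript start, against 11 as reported. All of the 7 and of the 6, and 17 of the 19, were among the 29 coding members. Over all coding genes the shares under the same settings were 19.2%, 11.0% and 31.6%. With 0.5 kb, 7 of 29 stood closer to its background of 19.2% than the reported 37.9% did to 24.2%. Maternally expressed members with such a peak numbered 2 with a window of 0.5 kb, 7 with 2 kb, 9 with any transcript start and 1 with peaks above the median score, against 4 of 13. Of the 13, 9 are coding, and 7 of these had a peak at any transcript start. With 2 kb the share of all coding genes was 28.2%, and the shares for the other settings are those given above. Without members imprinted in some tissues only, maternally expressed members with a start-site peak numbered 2 of 7, a share close to 4 of 13, against 14.3% of all autosomal genes. Members assigned to a promoter at a germline differentially methylated region and having such a peak numbered 4 with any transcript start, against 1. Median density was 1.56 peaks per 100 kb with peaks above the median score, 3.69 with flanks of 5 kb, 2.93 with flanks of 50 kb and 3.29 without overlapping members, against 3.54. The corresponding medians over all coding genes were 0, 2.0 and 2.82 for the first 3 settings. Distinct peaks numbered 40 above the median score and 128 with flanks of 50 kb, against 83. These settings change the number of peaks or sites counted by construction. No paired analysis was possible because there is a single library with peaks. Read depth is unknown and the input was not analysed here, so weak peaks cannot be weighed against background.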
